A study of Mus musculus with 6 samples.

Results

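A group of 10 Notch pathway genes, of the 32285 genes counted, was followed through 6 single-cell libraries of mouse autonomic ganglia. Its members were taken by name from the gene list of the matrices and comprise the receptors *Notch1*, *Notch2* and *Notch3*, the ligands *Dll1*, *Dll3*, *Dll4* and *Jag1*, and the target genes *Hes1*, *Hes5* and *Hey1*. Notch receptors sit in the cell surface and are bound by Delta-like or Jagged ligands on a neighbouring cell. Binding leads to cleavage of the receptor, whose inner part enters the nucleus, joins the DNA-binding protein RBPJ and switches on repressors of the Hes and Hey families. In the neural crest lineage this signal is known for holding cells back from neuronal differentiation and favouring glia, and in blood vessels for arterial identity, the choice of sprouting tip cells and the maturation of the mural cells, the pericytes and smooth muscle cells that wrap them.

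Whole ganglia were dissected on postnatal day 5 from pups of both sexes that carried a Cre recombinase transgene and the Cre reporter *RosatdT*, and the cells were dissociated with papain and then with collagenase and dispase. Round 1, with chemistry version 2, gave a stellate, a sphenopalatine and a first pelvic library (pelvic_1), and round 2, with version 3, gave a coeliac, a lumbar and a second pelvic library (pelvic_2). Stellate, lumbar and coeliac ganglia are sympathetic and the sphenopalatine ganglion is parasympathetic. All libraries carried the same alleles, no library served as an untreated control, and the reporter was not used here to choose cells. Since only the pelvic ganglion had 2 libraries, ganglia were not tested against each other. Libraries of the same round shared the chemistry. Between rounds, ganglion, round and chemistry cannot be told apart for the other ganglia.

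Libraries held between 39353313 and 113352559 unique molecular identifiers (UMIs, each standing for 1 captured RNA), and 21442 droplets passed the filters. Clusters were named from marker genes, with the 50 genes of a wider Notch list, members included, left out of the genes used for clustering, and classes are called "-like" because the names rest on markers alone. The comparisons below use 6550 neuron-like, 5480 glia-like, 1575 cycling glia-like, 681 endothelial-like, 587 mural-like, 2293 fibroblast-like and 506 macrophage-like cells. The 7 glial markers summed to between 7905 and 15191 UMIs per 1000000 (CPM) in glia-like cells and to between 13.7 and 65.5 CPM in neuron-like cells, and the 9 endothelial markers to between 6364 and 7420 CPM in endothelial-like cells and at most 49.7 CPM in neuron-like cells. Glia-like cells also carried the 8 fibroblast markers, at 1845 to 8448 CPM against 38307 to 65211 CPM in fibroblast-like cells. Endothelial-like cells also carried the 4 erythroid markers, at 4469 to 30123 CPM, and the 8 mural markers, at 424 to 1399 CPM. Depth differed between classes, with a median of 36107 UMIs per neuron-like and 4535.5 per glia-like cell, and at most 94 barcodes were shared by any pair of libraries.

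UMIs of each class were summed per library and are given as CPM of all UMIs of that sum. Classes were compared within libraries with the quasi-likelihood test of edgeR, fitted on 42 sums of 7 classes and 13003 genes, with *p*-values adjusted over all genes by the Benjamini-Hochberg method and a gene called at an adjusted *p* below 0.05. The library was a term of the fit, so these *p*-values measure how class differences vary from library to library, pooled over the 7 classes. Those libraries stand for different ganglia and chemistries, and nothing in the labels says whether they came from separate litters. Of the 10 members, 9 passed the filter on low counts, and *Dll1* did not. No fold change is given where neither class reached a mean of 3 CPM. Levels of different genes were not compared.

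**Figure D1:**
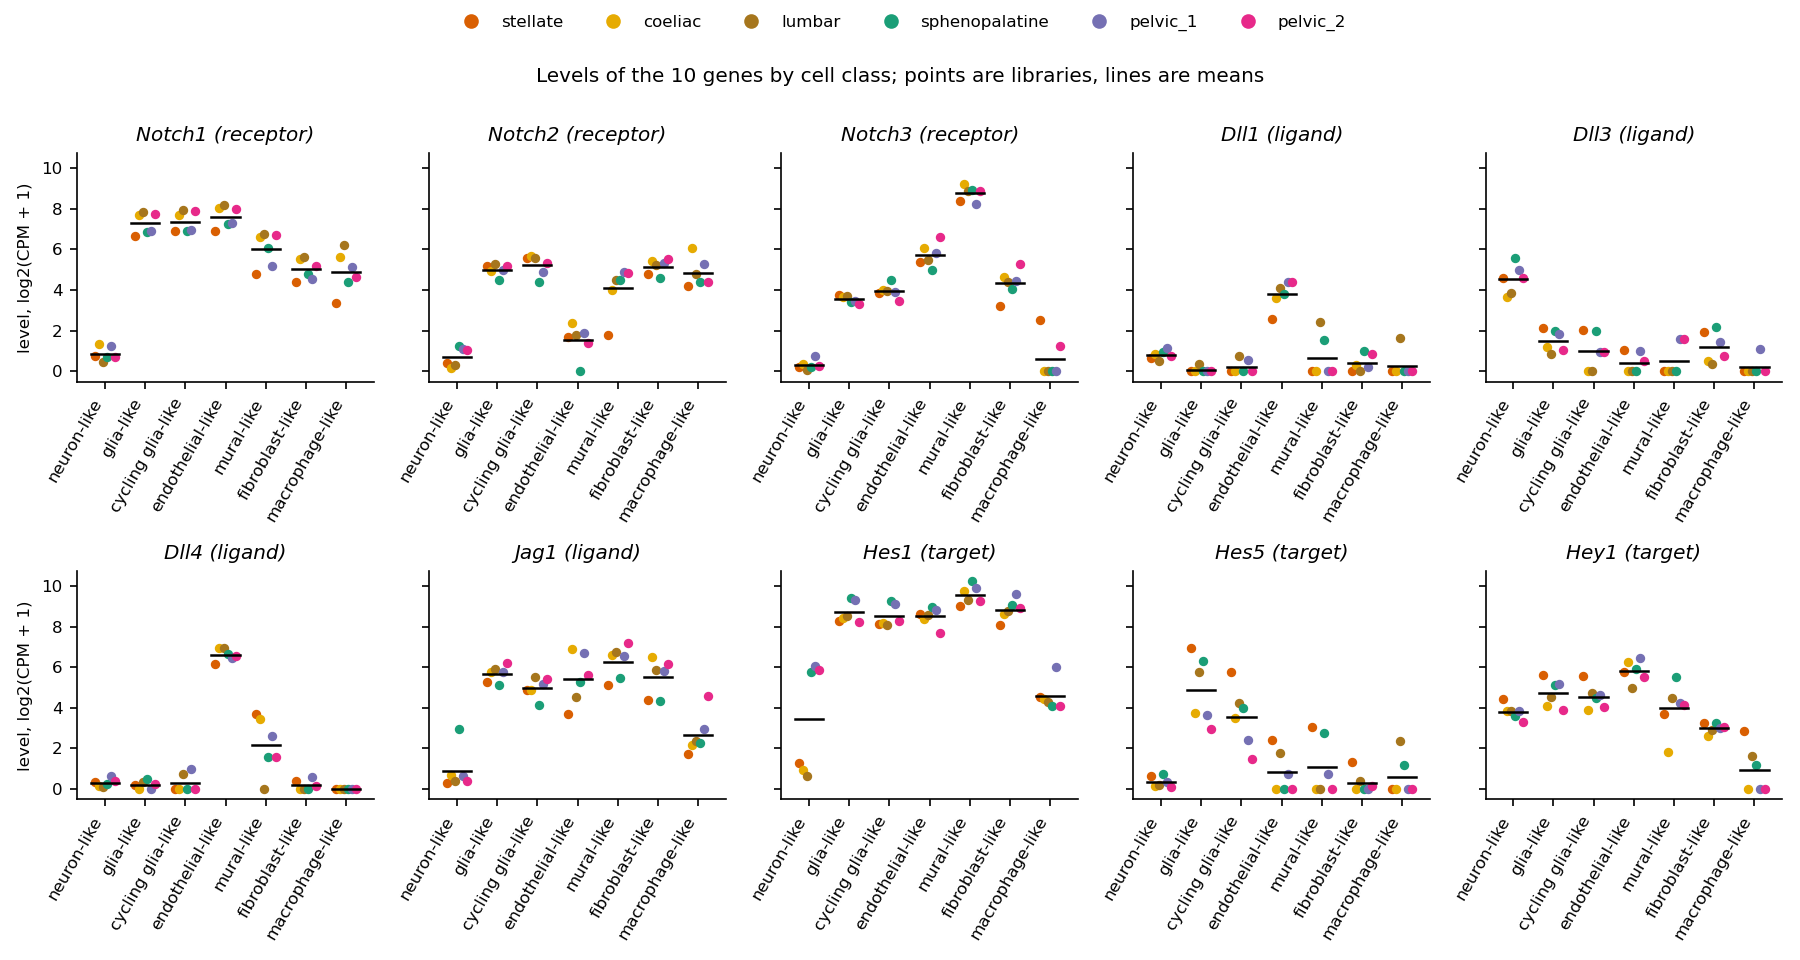
Level of each of the 10 genes in 7 cell classes, as log2(CPM + 1), with 1 point per library coloured by ganglion and a line at the mean of the 6 libraries. *Notch1* was low in neuron-like cells and high in glia-like and endothelial-like cells, *Notch3* was highest in mural-like cells, *Dll3* in neuron-like cells, *Dll4* in endothelial-like cells and *Hes5* in glia-like cells.

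Across classes, the 3 receptors were low in neuron-like cells, at 1.49 CPM or less, and each had its own distribution elsewhere. The neuronal levels depend on doublet removal, without which the means of *Notch1*, *Notch2* and *Notch3* went from 0.859, 0.697 and 0.251 CPM to 3.00, 1.33 and 0.520 CPM. Against neuron-like cells, 7 of the 9 members tested were higher and 1 lower in glia-like cells, where 73.0% of all genes were called (32.3% higher and 40.7% lower). In endothelial-like cells 8 were higher and 1 lower, with 77.1% of all genes called (36.9% higher and 40.2% lower), and 2 of the 8, *Notch2* and *Hes5*, were under 3 CPM in both classes. In mural-like cells 7 were higher, *Hes5* under 3 CPM in both classes among them, and 1 lower, with 69.1% called (29.1% higher and 40.0% lower). In fibroblast-like cells 5 were higher and 2 lower, with 75.2% called (34.9% higher and 40.2% lower). The median over the members was 5.05, 4.01, 4.58 and 4.37 on the log2 scale in these 4 comparisons, beside −0.12, −0.06, −0.22 and −0.09 over all genes. So large a share of all genes differed between these classes that the number of members called is no result by itself. Leaving out those under 3 CPM in both classes, 57 member differences were called over the 11 comparisons of classes.

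*Notch1* (ENSMUSG00000026923, GRCm38 chromosome 2, 26457903 to 26516663, minus strand, protein-coding like all members), the receptor best known in neural and endothelial precursors, was at its highest in endothelial-like and glia-like cells. In neuron-like cells its lowest level was 0.372 CPM, the median 0.650 and the highest 1.49. In glia-like cells it lay between 100 and 229 CPM with a median of 162, and in endothelial-like cells between 118 and 286 CPM with a median of 204. No library of either class came near the neuronal range. The difference between glia-like and neuron-like cells was 7.32 on the log2 scale (SE 0.29, edgeR adjusted *p* = 9.8e-22) and that between endothelial-like and neuron-like cells 7.71 (SE 0.29, adjusted *p* = 2.7e-22), each in 6 of 6 libraries. The difference between endothelial-like and glia-like cells was not called, at 0.39 with a 95% interval of −0.03 to 0.81 (adjusted *p* = 0.11). Endothelial-like cells were still the higher in 6 of 6 libraries. The spread was estimated over all classes together, so the lack of a call does not show equal levels.

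Mural-like cells, at 72.7 ± 35.4 CPM (SD, n = 6 libraries), were lower in *Notch1* than glia-like cells by 1.22 on the log2 scale (SE 0.24, adjusted *p* = 8.6e-05), and fibroblast-like cells, at 20.2 to 48.5 CPM, were lower by 2.13 (SE 0.23, adjusted *p* = 7.2e-10). In fibroblast-like cells *Notch1* was still above neuron-like cells by 5.19 on the log2 scale (adjusted *p* = 2.3e-18). Mural-like exceeded fibroblast-like cells by 0.90 (SE 0.26, adjusted *p* = 4.8e-03), a call that was lost in round 1 alone, at 0.67. Macrophage-like cells spread from 9.39 to 74.3 CPM, overlapping both. When every cell was thinned to 2000 UMIs, so that depth was equal, a *Notch1* UMI was found in 18.3 to 36.9% of glia-like cells and in 0 to 0.401% of neuron-like cells, and at full depth in 29.2 to 87.3% and in 1.90 to 7.87%. Within the glia-like class the libraries fell apart by round: 100, 115 and 117 CPM in the stellate, sphenopalatine and pelvic_1 libraries, against 207, 229 and 210 CPM in the coeliac, lumbar and pelvic_2 libraries. Endothelial-like cells divided in the same way, from 118 to 158 CPM in round 1 and from 250 to 286 CPM in round 2. The 2 pelvic libraries of the same ganglion thus stood on either side, and the part of the chemistry in this was not tested. The glia-like class was also made up of different clusters in each round, and the part of that was not tested either.

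*Notch2* (ENSMUSG00000027878, chromosome 3, 98013527 to 98150361, plus strand), a receptor of many mesenchymal and epithelial tissues, was low in endothelial-like as well as in neuron-like cells. Its level there was 0 CPM in the sphenopalatine library, at a floor of 3 UMIs that lay between 0.989 and 2.44 CPM over the libraries, and reached 4.16 CPM in the coeliac. In glia-like cells it lay between 21.2 and 38.3 CPM, with a median of 32.9. Fibroblast-like cells had a lowest level of 23.3 CPM, a median of 37.5 and a highest of 44.9. The endothelial-like range lay wholly below both. *Notch2* was 3.83 lower on the log2 scale in endothelial-like than in glia-like cells (SE 0.47, edgeR adjusted *p* = 8.7e-09), 4.15 lower than in fibroblast-like cells (SE 0.46, adjusted *p* = 2.0e-09) and 3.19 lower than in mural-like cells (SE 0.55, adjusted *p* = 1.3e-05). Glia-like, fibroblast-like and mural-like cells did not differ from each other past the threshold. The interval of fibroblast minus glia-like cells ran from −0.29 to 0.93, and mural minus fibroblast-like cells stood at −0.96 (interval −1.74 to −0.19, adjusted *p* = 0.052). That last difference passed the threshold with over 500 in place of over 1500 genes per droplet, at −0.92 (adjusted *p* = 0.043), and without the sphenopalatine library (adjusted *p* = 0.042). In neuron-like cells the highest level was 1.34 CPM, and glia-like cells exceeded them by 5.23 (SE 0.38, adjusted *p* = 1.3e-14). Macrophage-like cells, at 31.3 ± 18.4 CPM, spread from 17.2 to 65.6 CPM, past the ranges of glia-like and fibroblast-like cells at both ends.

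*Notch3* (ENSMUSG00000038146, chromosome 17, 32120820 to 32166852, minus strand), the receptor that pericytes and vascular smooth muscle cells are known for, peaked in mural-like cells. Its levels there were 598 CPM in the coeliac, 489 in the sphenopalatine, 475 in pelvic_2, 462 in the lumbar, 338 in the stellate and 295 in pelvic_1. Every one of these exceeded the highest library of every other class, which was 97.0 CPM, in endothelial-like cells of pelvic_2. Mural-like cells were higher by 10.67 on the log2 scale than neuron-like cells (SE 0.40, edgeR adjusted *p* = 9.1e-22), by 5.28 than glia-like cells (SE 0.31, adjusted *p* = 8.0e-16) and by 4.20 than fibroblast-like cells (SE 0.30, adjusted *p* = 1.9e-13). Endothelial-like cells were lower than mural-like cells by 2.93 (SE 0.28, adjusted *p* = 1.8e-10), and still higher than glia-like cells by 2.35 (SE 0.29, adjusted *p* = 1.6e-08). *Notch3* in endothelial-like cells amounted to between 6.18 and 20.4% of its mural level, and the 8 mural markers to between 3.22 and 10.5%, so their part in it was not tested. Glia-like cells held a narrow 8.81 to 12.6 CPM. Fibroblast-like cells, at 8.40 to 38.1 CPM, were higher than glia-like cells by 1.08 (SE 0.29, adjusted *p* = 2.3e-03), which was 0.60 and no longer called in round 1 alone. Since *Notch3* peaked in mural-like cells, the 300 bases around its start in the RefSeq table (GRCm38.p6, chr17:32166841-32167140, minus strand) are given, from 250 bases before to 50 after the start, 5′ to 3′:
*Notch3* promoter: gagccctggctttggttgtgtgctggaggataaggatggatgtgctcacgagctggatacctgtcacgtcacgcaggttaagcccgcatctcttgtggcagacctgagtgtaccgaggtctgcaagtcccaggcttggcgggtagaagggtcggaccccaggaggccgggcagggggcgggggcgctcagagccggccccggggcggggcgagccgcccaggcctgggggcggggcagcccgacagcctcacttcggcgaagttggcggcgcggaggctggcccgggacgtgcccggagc

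Each ligand had its own distribution. *Dll3* was the only member lower in all 4 other tested classes than in neuron-like cells, *Dll4* and *Dll1* were highest in endothelial-like cells, and *Jag1* was shared by glia-like, endothelial-like, mural-like and fibroblast-like cells at levels that overlapped.

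*Dll3* (ENSMUSG00000003436, chromosome 7, 28293553 to 28302238, minus strand), a divergent ligand that is known to act inside the cell that makes it rather than on a neighbour, was found in the neuron-like cells of every library. Sphenopalatine neurons had 46.8 CPM, pelvic_1 30.4, stellate 23.1, pelvic_2 22.8, lumbar 13.5 and coeliac 11.6. In glia-like cells the highest level was 3.38 CPM, below the lowest neuronal one. Glia-like cells were lower by 3.85 on the log2 scale (SE 0.28, edgeR adjusted *p* = 6.7e-15), fibroblast-like cells by 4.25 (SE 0.31, adjusted *p* = 5.3e-15), mural-like cells by 4.75 (SE 0.47, adjusted *p* = 3.1e-11) and endothelial-like cells by 5.87 (SE 0.41, adjusted *p* = 2.6e-15), each in 6 of 6 libraries. What was found in glia-like cells, 4.65 to 14.6% of the neuronal level, lay within the 3.88 to 18.7% at which the 7 neuronal markers were found there. A *Dll3* UMI was seen in 35.2 to 79.3% of neuron-like cells at full depth, and after thinning to 2000 UMIs in 1.12 to 8.68% of them against 0 to 0.945% of glia-like cells. *Dll3* was at 3.16 CPM in cluster 16 of the coeliac library and at 11.5 CPM in the same cluster of the lumbar, the lowest of all neuron-like clusters, while the 3 sphenopalatine clusters held 42.0 to 50.2 CPM. The *Dll3* promoter window (chr7:28301736-28302035, minus strand) is shown as that of the member of neuron-like cells:
*Dll3* promoter: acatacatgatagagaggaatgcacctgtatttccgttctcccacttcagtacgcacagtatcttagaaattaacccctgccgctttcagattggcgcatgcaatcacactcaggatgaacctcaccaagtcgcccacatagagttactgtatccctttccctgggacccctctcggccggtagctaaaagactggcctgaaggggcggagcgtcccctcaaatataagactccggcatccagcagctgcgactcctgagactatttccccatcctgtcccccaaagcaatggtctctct

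*Dll4* (ENSMUSG00000027314, chromosome 2, 119325784 to 119335962, plus strand), the ligand of arterial and sprouting endothelium, had its levels in endothelial-like cells between 69.6 CPM in the stellate and 123 CPM in the coeliac library, with a median of 96.1. Neuron-like cells had at most 0.553 CPM, glia-like cells at most 0.428 and fibroblast-like cells at most 0.515, with 6 UMIs in all 5480 glia-like cells. No UMI was counted in 506 macrophage-like cells, where 3 UMIs would have given between 2.35 and 10.4 CPM. Endothelial-like cells exceeded neuron-like cells by 8.48 on the log2 scale (SE 0.37, edgeR adjusted *p* = 2.8e-19), glia-like cells by 9.15 (SE 0.46, adjusted *p* = 2.3e-17) and fibroblast-like cells by 8.97 (SE 0.48, adjusted *p* = 2.1e-16). Mural-like cells came next, from 0 CPM in the lumbar to 12.1 in the stellate library with 20 UMIs in all, and were 4.51 below endothelial-like cells (SE 0.42, adjusted *p* = 2.0e-10). In them *Dll4* was 0 to 17.4% of its endothelial level and the 9 endothelial markers were 3.63 to 8.74%. The promoter window of *Dll4* (chr2:119325534-119325833, plus strand) is given as that of the ligand of endothelial-like cells:
*Dll4* promoter: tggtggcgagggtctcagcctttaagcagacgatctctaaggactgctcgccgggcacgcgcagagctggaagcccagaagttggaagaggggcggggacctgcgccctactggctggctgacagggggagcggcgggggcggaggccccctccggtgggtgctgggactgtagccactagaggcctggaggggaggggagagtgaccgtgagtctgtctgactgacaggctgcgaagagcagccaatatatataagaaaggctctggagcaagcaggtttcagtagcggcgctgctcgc

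*Dll1* (ENSMUSG00000014773, chromosome 17, 15367354 to 15376872, minus strand), a ligand of neural and somite precursors that arteries also use, was also highest in endothelial-like cells. It lay there at 4.86 CPM in the stellate, 11.3 in the coeliac, 13.1 in the sphenopalatine, 16.3 in the lumbar and 19.8 in both pelvic libraries, on 179 UMIs. No other class tested went over 4.28 CPM in any library, and that value was 1 UMI in lumbar mural-like cells. Fitted without the filter on low counts, the only fit to hold it, endothelial-like cells exceeded neuron-like cells by 3.84 on the log2 scale (SE 0.40, edgeR adjusted *p* = 2.8e-11) and glia-like cells, with 2 UMIs in all, by 7.57 (SE 0.62, adjusted *p* = 7.2e-14). Neuron-like cells held 0.415 to 1.20 CPM, on 206 UMIs.

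*Jag1* (ENSMUSG00000027276, chromosome 2, 137081456 to 137116644, minus strand), the Jagged ligand of arterial wall, glia and mesenchyme, was shared. Its lowest, median and highest levels were 33.4, 53.2 and 74.0 CPM in glia-like cells. In fibroblast-like cells they were 19.3, 56.3 and 89.8 CPM, and in endothelial-like cells 11.9, 42.9 and 117 CPM. The ranges of these classes and of mural-like cells (34.0 to 147 CPM) overlapped. Each exceeded neuron-like cells, by 5.05 on the log2 scale in glia-like (SE 0.63, edgeR adjusted *p* = 1.2e-08), 5.08 in endothelial-like (SE 0.64, adjusted *p* = 1.4e-08), 5.15 in fibroblast-like (SE 0.64, adjusted *p* = 1.1e-08) and 5.68 in mural-like cells (SE 0.68, adjusted *p* = 6.4e-09). None of the 6 differences among the 4 classes passed the threshold, the widest being mural minus glia-like cells at 0.63 with an interval of −0.49 to 1.74 (adjusted *p* = 0.41). Mural-like cells were the higher in 6 of 6 libraries against fibroblast-like, in 5 against glia-like and in 4 against endothelial-like cells. The spread was estimated over all 7 classes together, so that of neuron-like cells enters these intervals, and the lack of a call does not show equal levels. In neuron-like cells *Jag1* was at 0.232 to 0.607 CPM in 5 libraries and at 6.81 CPM in the sphenopalatine.

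**Figure D2:**
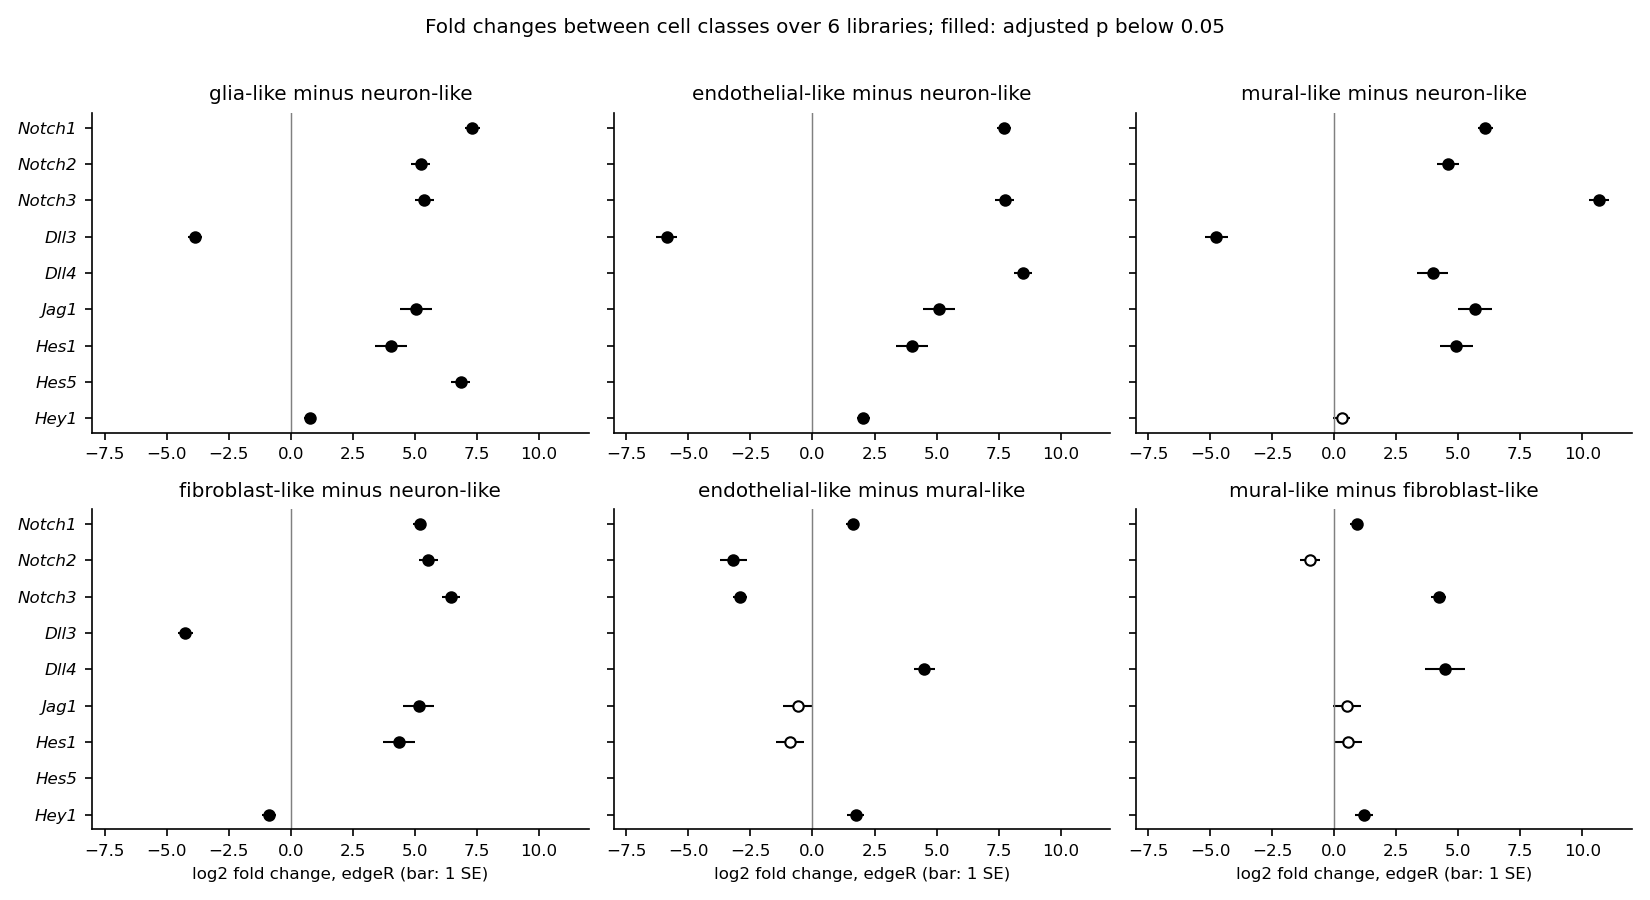
Log2 fold changes from edgeR with bars of 1 SE for the 9 members tested, in 6 of the comparisons of classes over 6 libraries, filled where the adjusted *p* was below 0.05 and left out where neither class reached a mean of 3 CPM. *Dll3* lies to the left of 0 in each comparison with neuron-like cells, and *Notch3* at 10.67 in mural minus neuron-like cells is the farthest point to the right.

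Among the non-neuronal classes fewer members were called, and so was a smaller share of all genes, so these counts are no result by themselves either. Endothelial minus glia-like cells had 3 higher and 3 lower of 9, beside 62.1% of all genes called (30.8% higher and 31.3% lower). Endothelial minus fibroblast-like cells had 4 higher and 2 lower, beside 54.4% (27.4% higher and 27.0% lower). In each of these 2 comparisons 1 of the lower members, *Dll3*, was under 3 CPM in both classes. Endothelial minus mural-like cells had 3 higher and 2 lower, beside 44.1% (24.9% and 19.2%). In mural minus glia-like cells 2 were higher and 2 lower, beside 44.3% (19.1% and 25.2%), and in fibroblast minus glia-like cells 1 was higher and 3 lower, beside 51.4% (25.6% and 25.8%). Mural minus fibroblast-like cells had 5 higher and 0 lower, beside 37.4% (15.3% and 22.1%), and 1 of those, *Hes5*, was under 3 CPM in both classes. Cycling glia-like minus glia-like cells gave 0 higher and 1 lower, beside 30.0% of all genes (10.9% and 19.1%).

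Of the 3 targets, *Hes1* was general outside neurons, *Hes5* was glial and *Hey1* was the one found in the neuron-like cells of all 6 libraries at 8.78 CPM or more. *Hes1* (ENSMUSG00000022528, chromosome 16, 30064384 to 30067796, plus strand), a repressor that responds to Notch and to other signals, had lowest, median and highest levels of 303, 353 and 686 CPM in glia-like cells. In mural-like cells these were 512, 755 and 1194 CPM, and in endothelial-like cells 207, 388 and 501 CPM. Every library of every one of these classes lay above every neuronal one. *Hes1* was higher than in neuron-like cells by 4.05 on the log2 scale in glia-like (SE 0.64, edgeR adjusted *p* = 1.2e-06), 4.01 in endothelial-like (SE 0.65, adjusted *p* = 1.5e-06), 4.37 in fibroblast-like (SE 0.65, adjusted *p* = 3.4e-07) and 4.92 in mural-like cells (SE 0.67, adjusted *p* = 9.2e-08). No difference among those 4 classes was called. Mural-like cells were still the higher in 6 of 6 libraries against glia-like cells (0.87, interval −0.24 to 1.99, adjusted *p* = 0.23) and against fibroblast-like cells (0.55, interval −0.56 to 1.66). They did not overlap with endothelial-like cells (−0.91 for endothelial minus mural-like cells, interval −2.04 to 0.21, adjusted *p* = 0.21). The spread of each gene was estimated over all 7 classes together, neuron-like cells included, where *Hes1* ran from 0.587 to 66.0 CPM. These intervals carry that spread too, so the lack of a call does not show equal levels. Macrophage-like cells were low, at 16.1 to 21.9 CPM in 5 libraries and 64.4 CPM in pelvic_1. Glia-like cells of pelvic_1 and the sphenopalatine held 639 and 686 CPM and those of the other libraries, pelvic_2 included, 303 to 364 CPM.

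In neuron-like cells *Hes1* split the ganglia. Neurons of the pelvic_1 library held 66.0 CPM, those of pelvic_2 held 57.9 CPM and sphenopalatine neurons 54.0 CPM. Stellate neurons held 1.42 CPM, coeliac neurons 0.938 CPM and lumbar neurons 0.587 CPM. The pelvic and sphenopalatine libraries thus lay far above the sympathetic ones, in both rounds for the pelvic ganglion, and this was not tested since the other ganglia had 1 library each. A *Hes1* UMI was found in 65.3 to 71.7% of the neuron-like cells of these 3 libraries and in 3.53 to 3.75% of those of the sympathetic ganglia, which after thinning became 9.61 to 11.7% and 0 to 0.220%. Summed, the 7 glial markers came to at most 0.431% of their glial level in neuron-like cells of any library, where *Hes1* came to between 0.162% in the lumbar and 19.1% in pelvic_2. Of the single markers *S100b* came highest, at 1.10 to 17.1%, and the other 6 stayed at or under 0.709%. In the sphenopalatine *S100b*, at 17.1%, was above *Hes1*, at 7.87%. In pelvic_1 and pelvic_2 *S100b*, at 6.11 and 5.73%, was below *Hes1*, at 10.3 and 19.1%. Since 374 neuron-like droplets had been removed for glial markers, these shares hold only for the droplets left. Without any doublet removal the mean *Hes1* of neuron-like cells was 34.4 CPM, beside 30.1 CPM with it.

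**Figure D3:**
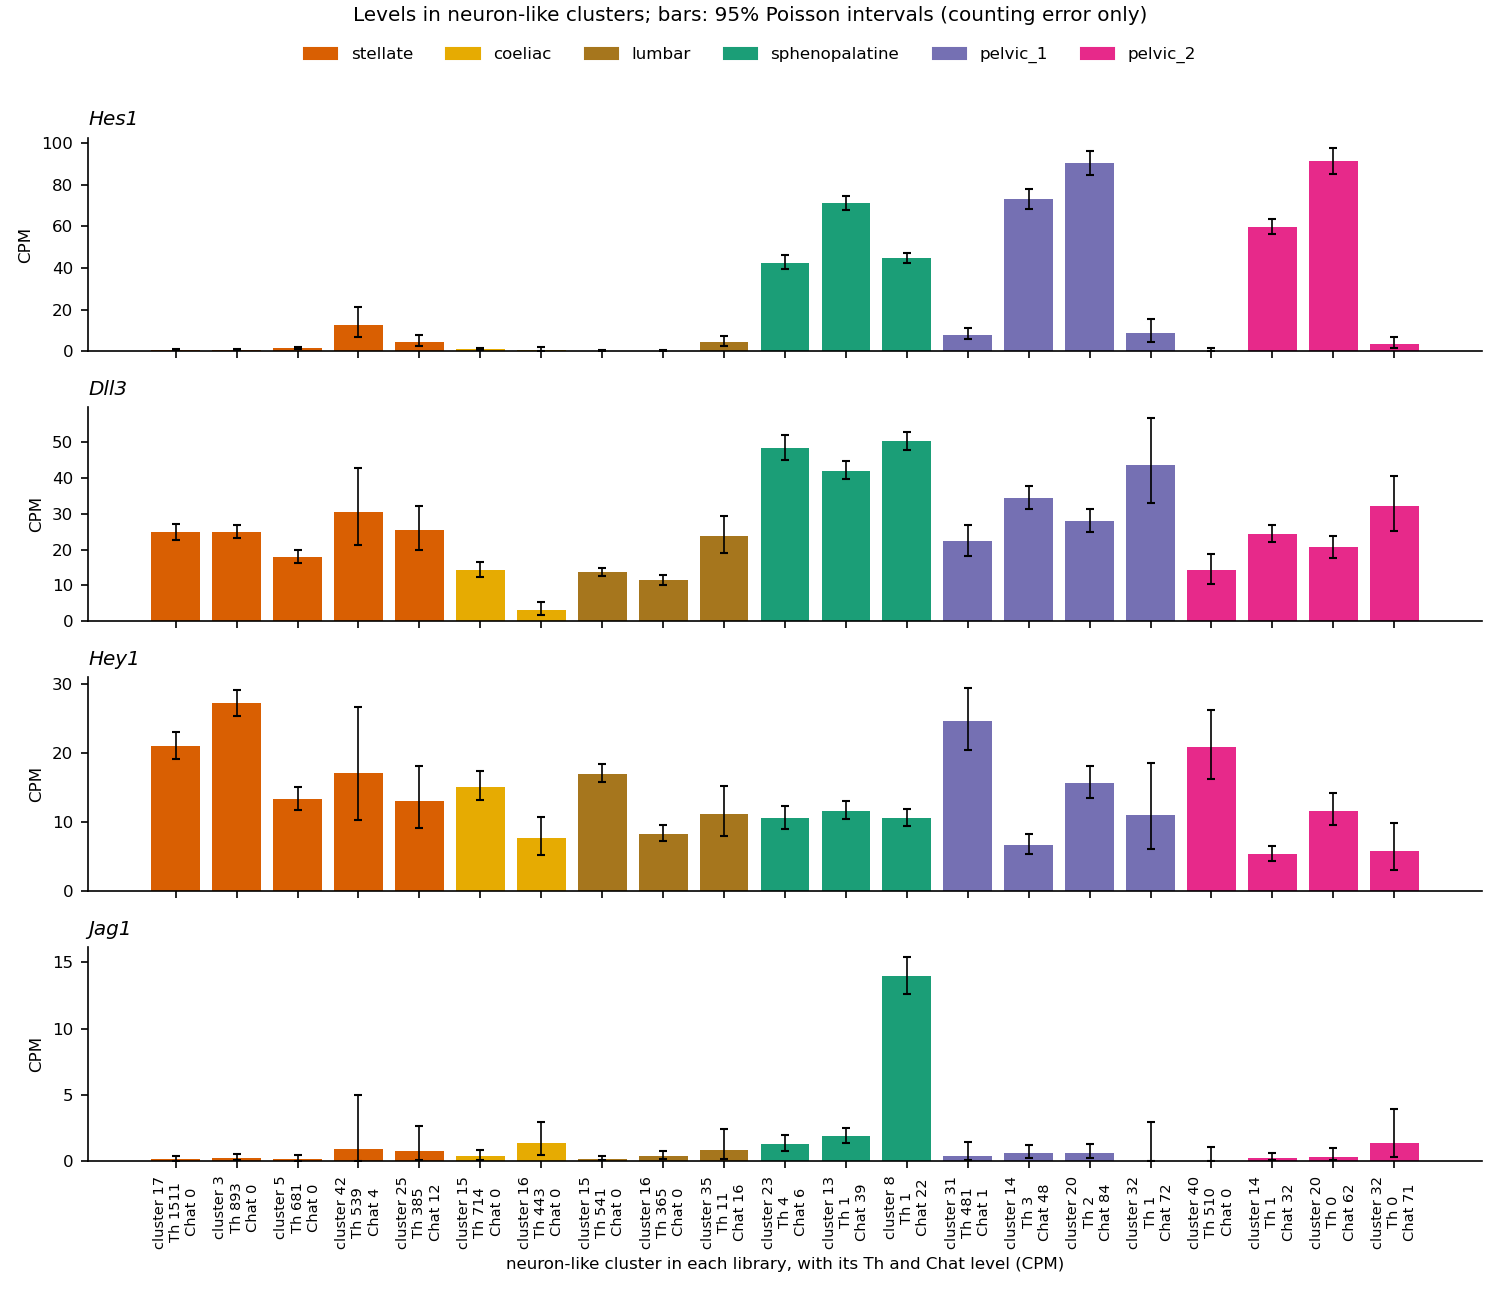
CPM of *Hes1*, *Dll3*, *Hey1* and *Jag1* in each neuron-like cluster of each library, with 95% Poisson intervals that cover counting error only, and with the CPM of *Th* and *Chat* of the same cells below. *Hes1* is tall in the 3 sphenopalatine clusters and in clusters 14 and 20 of both pelvic libraries, and *Jag1* in cluster 8 of the sphenopalatine at 14.0 CPM.

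Within the pelvic ganglion the level went with the cluster. Clusters 14 and 20, which carried *Chat*, the enzyme that makes acetylcholine, at 31.8 to 84.1 CPM and nearly no *Th*, the first enzyme of noradrenaline synthesis, held *Hes1* at 72.9 and 90.2 CPM in pelvic_1 and at 59.9 and 91.1 CPM in pelvic_2. Clusters 31 and 40, with *Th* at 481 and 510 CPM, held 8.11 CPM on 40 UMIs in pelvic_1 and 0.290 CPM on 1 UMI in pelvic_2. Both libraries gave the same order. *Chat* alone did not follow *Hes1*, since cluster 32, with *Chat* at 72.2 and 71.3 CPM in the pelvic libraries, had *Hes1* at 8.72 and 3.57 CPM on 11 and 8 UMIs. The summed glial markers were 32.5 and 36.9 CPM in clusters 14 and 20 of pelvic_1 against 30.8 in cluster 31, and 21.2 and 22.5 CPM in pelvic_2 against 14.5 in cluster 40. Sphenopalatine clusters 23, 8 and 13 had *Hes1* at 42.6, 44.9 and 71.0 CPM. Among the sympathetic clusters 42 of the stellate, with 26 cells, was highest at 12.6 CPM (6.88 to 21.1), and the rest were at or under 4.73 CPM. *Jag1* divided the sphenopalatine clusters otherwise, at 14.0 CPM in cluster 8, led by *Tac2*, and 1.86 and 1.27 CPM in clusters 13 and 23. Clusters are defined by the genes of these same cells, so none of this is a test.

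*Hes5* (ENSMUSG00000048001, chromosome 4, 154960923 to 154962371, plus strand), a repressor of neurogenesis that is among the most direct readouts of Notch in neural progenitors, was glial. Its level in glia-like cells was 121 CPM in the stellate, 79.0 in the sphenopalatine, 53.2 in the lumbar, 12.5 in the coeliac, 11.6 in pelvic_1 and 6.70 in pelvic_2. The 2 pelvic libraries, of different rounds, had the lowest levels. The glia-like class was not made up alike in both rounds. In round 2 it took in cluster 10, near 0 in *Hes5*, with 286 coeliac, 217 lumbar and 248 pelvic_2 droplets before doublet removal. Cluster 4, also near 0, stayed outside the class, with 151 stellate, 324 sphenopalatine and 546 pelvic_1 droplets of round 1. The part of this in the order of libraries was not tested. Neuron-like cells held 0.0601 to 0.656 CPM, so the classes did not overlap, and glia-like cells were higher by 6.85 on the log2 scale (SE 0.38, edgeR adjusted *p* = 3.6e-18). *Hes5* was lower in endothelial-like cells than in glia-like cells by 5.15 (SE 0.46, adjusted *p* = 3.2e-12), in mural-like cells by 4.29 (SE 0.54, adjusted *p* = 2.1e-08) and in fibroblast-like cells by 6.79 (SE 0.48, adjusted *p* = 1.3e-14). Cycling glia-like cells had 53.1 CPM in the stellate and 1.81 to 17.9 CPM elsewhere, lower than glia-like cells of the same library in 6 of 6, by 1.55 (SE 0.32, adjusted *p* = 2.2e-04). *Hes1* in the same comparison stood at −0.35 (interval −1.45 to 0.74) and *Notch1* at −0.06 (interval −0.48 to 0.37).

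The 300 bases around the RefSeq start of *Hes5* (chr4:154960673-154960972, plus strand) are shown because they hold the core bound by RBPJ, TGGGAA, on both strands, at -226 on the minus strand (read as TTCCCA) and at -82 on the plus strand, counted from the start. Capitals mark these matches:
*Hes5* promoter: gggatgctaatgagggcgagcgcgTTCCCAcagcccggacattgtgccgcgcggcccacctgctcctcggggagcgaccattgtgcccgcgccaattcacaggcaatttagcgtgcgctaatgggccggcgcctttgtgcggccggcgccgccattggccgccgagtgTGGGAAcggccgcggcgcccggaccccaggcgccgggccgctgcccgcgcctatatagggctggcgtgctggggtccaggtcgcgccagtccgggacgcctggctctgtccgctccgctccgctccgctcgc
TGGGAA was searched on both strands of 32851 promoter windows of the same length, of which 8397 (25.6%) held at least 1 match and 1245 (3.79%) at least 2. The windows listed for *Notch1*, *Notch2*, *Notch3*, *Dll1*, *Dll3*, *Dll4* and *Jag1* held none, so those shown above have no capitals. The windows of *Hes1* and *Hey1* were not analysed here. A match is a description of the letters and not of binding.

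**Figure D4:**
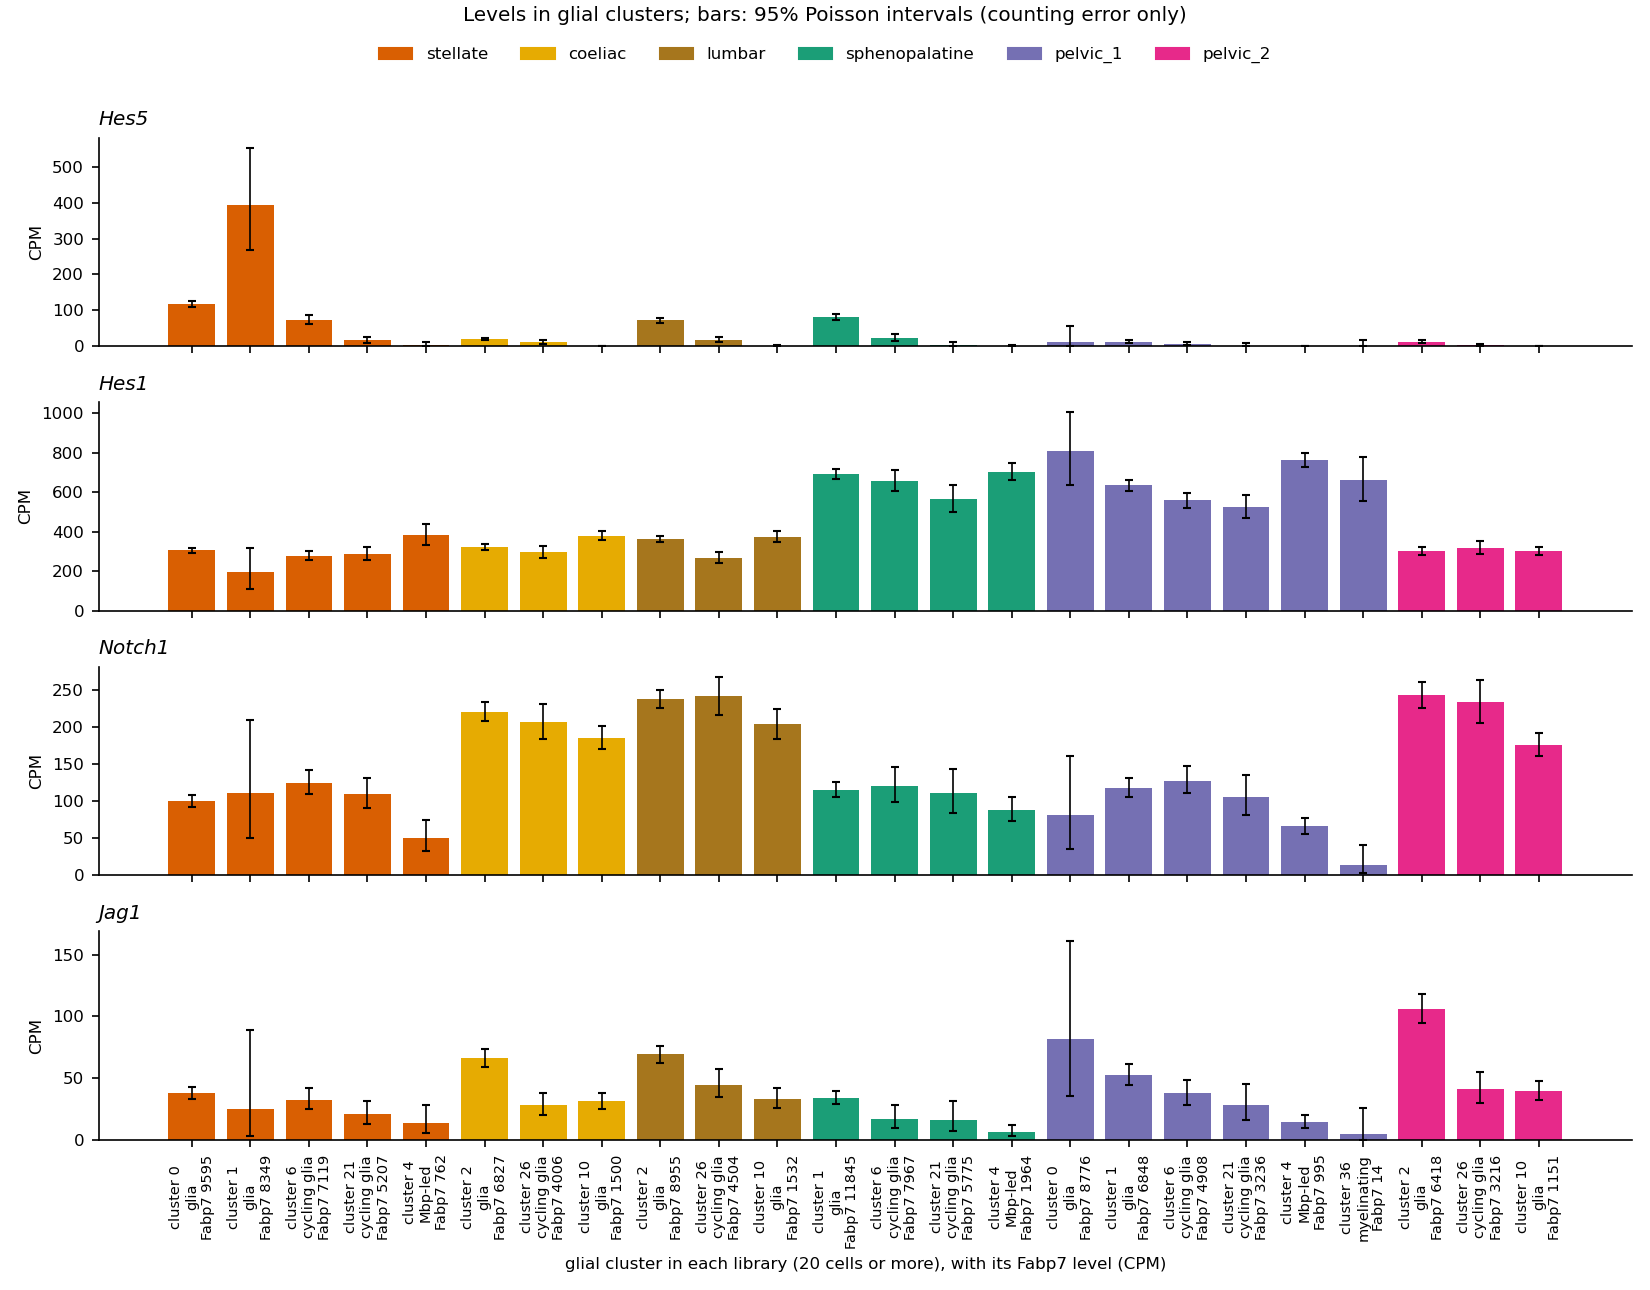
CPM of *Hes5*, *Hes1*, *Notch1* and *Jag1* in the glial clusters with 20 or more cells of each library, with 95% Poisson intervals for counting error only, and with the *Fabp7* level of the same cells below. *Hes5* is near 0 in clusters 4, 10 and 36, whereas *Hes1* stays at 302 to 762 CPM in clusters 4 and 10.

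Among glial clusters *Hes5* was near 0 where *Fabp7*, a fatty acid binding protein of immature and satellite glia, was low, but varied where it was high. In clusters 0, 1 and 2, with the *Fabp7* level at 6418 CPM or above, *Hes5* reached 118 CPM in stellate cluster 0, 80.0 in sphenopalatine cluster 1 and 71.6 in lumbar cluster 2. It was 11.7 CPM in pelvic_1 cluster 1, with *Fabp7* at 6848 CPM, and 19.9 CPM in coeliac and 12.9 CPM in pelvic_2 cluster 2, so high *Fabp7* did not go with high *Hes5* in these libraries. Cluster 10 of the round 2 libraries, with *Fabp7* at 1151 to 1532 CPM, held 1 *Hes5* UMI in the lumbar library and none in the coeliac and pelvic_2, where 3 UMIs would give 0.951 and 1.10 CPM. Cluster 4 of round 1, which carried the myelin gene *Mbp* at 1881 to 2309 CPM and which the naming rule left unnamed, held 1 UMI in the stellate and none in the others. *Sox10*, the general glial factor, was at 313 to 370 CPM in cluster 10 and 290 to 309 CPM in cluster 2. *Hes1* was at 302 to 379 CPM in cluster 10 and 303 to 360 CPM in cluster 2, so the repressors did not follow each other there. *Notch1* was lower in cluster 4, at 50.6 to 88.4 CPM, and in cluster 36, myelinating Schwann-like, led by myelin genes, it was 13.8 CPM in pelvic_1 and 38.4 in the sphenopalatine on 7 UMIs in all. *Jag1* also went down with *Fabp7* between these clusters of round 2, from 65.9 to 106 CPM in cluster 2 to 31.1 to 39.4 CPM in cluster 10. Over libraries it did not. Glia-like cells of the sphenopalatine and stellate had the most *Fabp7*, at 11821 and 9579 CPM, and *Jag1* at 33.4 and 37.5 CPM. The other libraries had *Jag1* at 53.0 to 74.0 CPM. Myelinating Schwann-like cells reached 10 cells in 2 libraries only and could not be compared with glia-like cells by the test.

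*Hey1* (ENSMUSG00000040289, chromosome 3, 8663359 to 8667256, minus strand), a repressor of arterial endothelium and of progenitors, was highest in endothelial-like cells taken as a class. It was present in the neurons of every ganglion. Its lowest, median and highest levels were 30.9, 56.1 and 87.4 CPM in endothelial-like cells. In glia-like cells they were 13.9, 27.8 and 47.5 CPM, and in neuron-like cells 8.78, 13.2 and 21.0 CPM. The neuronal and glial ranges overlapped, the neuronal and endothelial ones did not. Endothelial-like cells exceeded neuron-like cells by 2.04 on the log2 scale (SE 0.26, edgeR adjusted *p* = 9.6e-09), glia-like cells by 1.26 (SE 0.26, adjusted *p* = 8.2e-05), mural-like cells by 1.74 (SE 0.33, adjusted *p* = 4.6e-05) and fibroblast-like cells by 2.94 (SE 0.29, adjusted *p* = 1.0e-10). Glia-like cells were higher than neuron-like cells by 0.78 (SE 0.25, adjusted *p* = 5.8e-03) in 6 of 6 libraries, which fell to 0.40 and was not called in round 2 alone (adjusted *p* = 0.27). Fibroblast-like cells, at 5.02 to 8.63 CPM, were lower than neuron-like cells by 0.89 (SE 0.28, adjusted *p* = 4.4e-03), with no overlap, though this call was lost in round 1 alone and with each library clustered alone. Mural-like cells, with a mean of 19.2 ± 14.1 CPM, ran up to 44.7 CPM in the sphenopalatine and did not differ from neuron-like cells past the threshold, with an interval of −0.35 to 0.96.

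The *Hey1* of neuron-like cells amounted to between 33.0 and 81.5% of its glial level, whereas the 7 glial markers, on which neuron-like droplets had been filtered, amounted to 0.123 to 0.431%, and *Hes5* to 0.269 to 2.52%. Without doublet removal the neuronal mean of *Hey1* was 13.6 CPM, beside 13.5 with it, and that of *Hes5* 0.933 CPM, beside 0.306. It was at least 5.41 CPM in every neuron-like cluster. In the stellate it was 27.2 CPM in cluster 3 and 13.4 in cluster 5, and in the pelvic ganglion 24.7 and 20.9 CPM in the clusters with *Th*, 31 and 40, against 6.73 and 5.41 CPM in cluster 14. Between the clusters with *Th* and cluster 14, the order of *Hey1* was therefore the opposite of that of *Hes1*, in both libraries. The other pelvic clusters were not part of this comparison. A *Hey1* UMI was found in 34.4 to 50.9% of neuron-like cells at full depth. After thinning the share was 0.285 to 3.37%, which overlapped with the 0 to 2.49% of macrophage-like cells, so at equal depth single cells did not separate these classes. The summed levels did not overlap, with 10 UMIs in all 506 macrophage-like cells and at most 6.26 CPM.

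Endothelial-like cells held 2 clusters, and the smaller, cluster 37, concentrated the ligands. It carried *Gja5*, a connexin of arteries, at 371 CPM in its 41 cells of pelvic_1 and at 351 CPM in its 10 cells of the sphenopalatine, against 1.08 to 6.84 CPM in cluster 12. *Dll4* was 198 and 213 CPM in cluster 37 and 61.6 and 87.7 CPM in cluster 12 of the same libraries. *Dll1* was 54.8 and 75.6 CPM against 11.8 and 7.46, and *Jag1* 403 and 179 CPM against 32.4 and 24.3. *Hey1* stood at 333 and 220 CPM against 31.2 and 44.8, and *Notch1* at 246 and 268 CPM against 137 and 139. In cluster 12 *Hey1* thus lay below glia-like cells of pelvic_1, at 35.2 CPM, and above those of the sphenopalatine, at 33.4 CPM. *Hes1* was lower in cluster 37, at 272 and 268 CPM against 492 and 522. *Notch3* was 10.6 and 0 CPM against 66.5 and 33.0, and the mural markers summed to 195 and 68.8 CPM against 917 and 456. The other libraries had no cells, or too few, in cluster 37, and clusters are no test of the genes of their own cells.

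To ask whether ligand and target occur in the same endothelial-like cells, cells were divided by whether they held a *Dll4* UMI after thinning to 2000 UMIs, which left 4 libraries with at least 10 cells on either side. *Hey1* was 114 CPM in cells with and 42.8 in cells without *Dll4* in the stellate, and 188 against 68.5 CPM in pelvic_1. In the sphenopalatine it was 99.1 against 53.6 CPM and in the lumbar 40.9 against 25.8 CPM. Cells with *Dll4* were higher in 4 of 4 libraries, by 1.10 ± 0.39 on the log2 scale (SD, n = 4; two-sided exact permutation test over libraries, *p* = 0.125, the smallest that 4 libraries allow; 0.438 adjusted over 7 measures). With at least 5 cells on either side, 6 libraries entered and the ratio was 1.25 (6 of 6 higher, exact permutation *p* = 0.03125, adjusted 0.109). That *p* is again the smallest that 6 libraries allow. The 6 arterial genes summed were 0.60 higher in 4 of 4 libraries (exact permutation *p* = 0.125), and 0.39 higher without pelvic_1. *Jag1* was 0.80 ± 0.89 higher in 3 of 4, and 0.48 higher without the stellate library. *Notch1* was 0.08 ± 0.55 in 2 of 4 and *Hes1* 0.12 ± 0.27 in 2 of 4. The 5 tip cell genes stood at −0.07 ± 0.38 and the 4 venous genes at −0.21 ± 0.21.

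**Figure D5:**
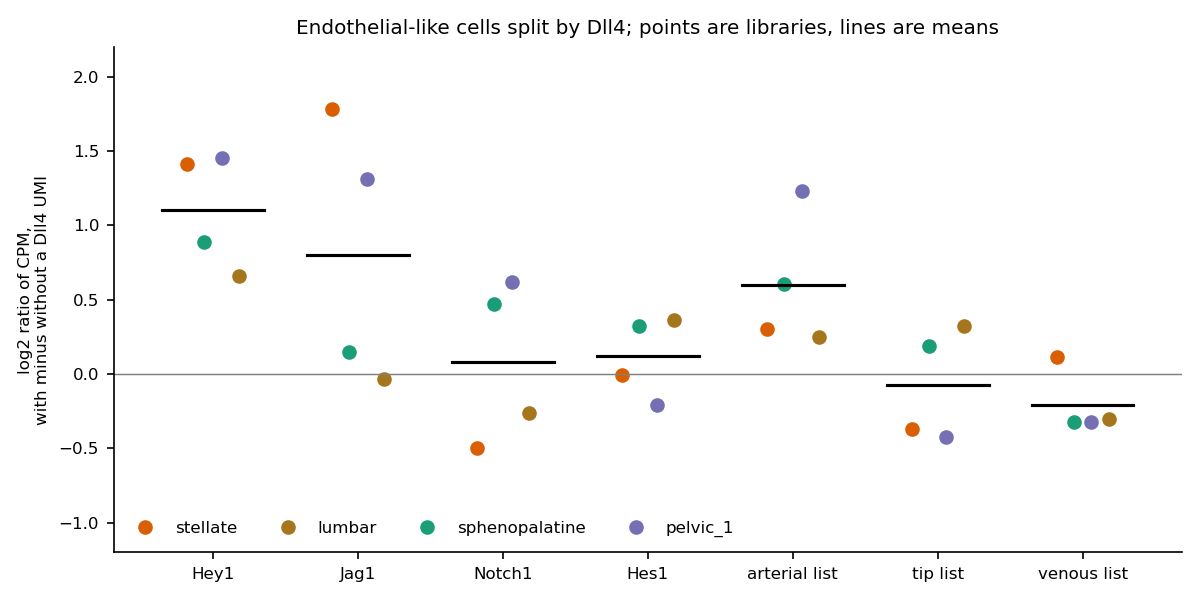
Log2 ratio of the CPM in endothelial-like cells with a *Dll4* UMI (after thinning) to that in cells without, with 1 point for each of 4 libraries and a line at their mean, for 4 members and the summed arterial, tip and venous genes. All points of *Hey1* and of the arterial genes lie above 0.

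Mural-like clusters differed in *Jag1*. Cluster 29, led by the contractile gene *Acta2*, held 155 CPM in pelvic_1, 206 CPM in pelvic_2 and 66.7 CPM in sphenopalatine cells, and clusters 24 and 33 of the same libraries held 26.0 to 115 CPM, lower within each library. *Notch3* did not separate them, at 309 to 489 CPM in cluster 29 and 266 to 560 CPM in the other clusters of these libraries. *Acta2* was also among the leading genes of cluster 33, which, like cluster 24, was led by *Rgs5*.

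The other genes of the pathway list, 39 of 40 tested, went both ways. In glia minus neuron-like cells 17 were higher and 13 lower (76.9% called, against 73.0% of all genes), with a median of 0.12 on the log2 scale beside −0.12 over all genes. In endothelial minus neuron-like cells 22 were higher and 13 lower (89.7%, against 77.1%), with a median of 0.57 beside −0.06. In mural minus neuron-like cells 13 were higher and 14 lower (69.2%, against 69.1%), and in fibroblast minus neuron-like cells 17 were higher and 14 lower (79.5%, against 75.2%). *Lfng*, which adds sugars to the receptor and so tunes its choice of ligand, was 6.26 higher in glia-like and 8.70 higher in endothelial-like than in neuron-like cells (edgeR adjusted *p* = 5.0e-16 and 8.8e-20). *Heyl*, a target related to *Hey1*, was higher than in neuron-like cells by 6.27 in glia-like (SE 0.33) and by 8.56 in mural-like cells (SE 0.36). *Nrarp*, a target that feeds back on the receptor, was 7.43 higher in endothelial-like and 7.79 higher in mural-like than in neuron-like cells. *Mfng*, a relative of *Lfng*, and the ligand *Jag2* were 8.39 and 5.09 higher in endothelial-like than in glia-like cells. *Hey2* was lower in fibroblast-like than in glia-like cells by 6.18, and *Dlk1*, a ligand without the usual receptor-binding domain, was higher by 4.85. In mural minus glia-like cells 8 were higher and 15 lower (59.0% called, against 44.3% of all genes), led by *Neurl1b*, which marks ligands for uptake (4.84), and *Adam17*, a sheddase of the receptor (−2.44). Cycling glia-like cells had 1 higher, *Neurl1b* at 4.24, and 15 lower than glia-like cells (41.0% called, against 30.0% of all genes), with *Psen2*, a subunit of the cleaving enzyme, at −2.37 and a list median of −0.32 beside −0.20 over all genes.

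Among 13002 other genes, those whose levels over the 42 sums were most like each member are given as a description, since the sums share libraries and classes. For *Notch3* they were *Pdgfrb*, *Vstm4* and *Ajuba* (Pearson *r* of log2 CPM 0.97, 0.94 and 0.94), for *Notch1* *Ctnna1*, *Dock1* and *Qk* (0.96, 0.95 and 0.92) and for *Notch2* *Sdc4*, *Fam129a* and *Plxdc2* (0.87, 0.86 and 0.85). *Dll4* was most like *Grrp1*, *Gm14207* and *Flt1* (0.92, 0.91 and 0.90), *Dll3* like *Rimkla*, *Sec61a2* and *Vamp2* (all 0.86) and *Jag1* like *Ccnd2*, *Nfix* and *Kank2* (0.91, 0.90 and 0.90). For *Hes1* they were *Ccnd2*, *Rhbdf1* and *Serpinh1* (0.92, 0.90 and 0.90), for *Hes5* *Fnta*, *Mmd2* and *C130071C03Rik* (0.86, 0.83 and 0.83) and for *Hey1* *Dnaja4*, *Cd200* and *Mindy4* (0.88, 0.86 and 0.85). No member was among the 3 nearest genes of another.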

How the data were processed

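Cells of 6 libraries were profiled by droplet single-cell RNA sequencing, and the raw UMI counts per gene and droplet deposited by the authors were used. Per the labels, the submitters' processing notes name Cell Ranger 6.0.1 and the genome build mm10. Deposited counts are not normalized, and the matrices were read without further filtering of genes. A droplet was kept if it had more than 1500 but fewer than 11000 genes, and less than 15% of its UMIs from mitochondria, which left 21442. Libraries were clustered together with scanpy 1.11.5 and python-igraph 0.11.9 (log counts, 3000 variable genes without the 50 genes of the Notch list, 50 components, 20 neighbours, Leiden resolution 1), giving 46 clusters, of which 5 with 1246 cells stayed unnamed. Doublets were removed by Scrublet score (1175) and, among neurons, by glial markers (374).

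UMIs were summed per library and class where at least 10 cells were present, giving 42 sums. These were tested with edgeR 4.0.16 in R 4.3.3 (TMM, quasi-likelihood, class plus library, 30 residual degrees of freedom). DESeq2 1.42.0 served as an alternative. Standard errors are the fold change divided by the root of F. CPM are counts per 1000000 UMIs of a sum, and their Poisson intervals and the floor of 3 UMIs cover counting error only. Shares of cells with a UMI are given at full depth and after thinning each cell to 2000 UMIs, which left out 0 cells. The cutoff of 3 mean CPM below which no fold is given was chosen after the values were seen. It left 81 of 99 member comparisons.

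Members, marker lists and the pathway list were chosen with earlier results of these data known. Named are the 10 members and, of the other 40 listed genes, the 2 called genes with the greatest fold change in each comparison. The 3 genes most like each member were found by Pearson *r* of log2 CPM, taken with a prior count of 1. Genes of cell clusters were chosen after their values were seen. Promoters are RefSeq windows of GRCm38.p6, and gene positions are those of GRCm38. The fit was tested on simulated data for glia minus neurons with 13003 genes. It recovered 80 of 100 genes changed by 1 on the log2 scale and 96 of 100 changed by 2, and called 7 of 12803 unchanged genes. Apart from the changed genes, all simulated classes and libraries had the same mean profile. In the data 73.0% of genes were called in this comparison, so these rates need not carry over. The driver of the Cre transgene is not reported here.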

Additional observations from a re-analysis of the deposited data

Results flagged for a closer look

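Of 49 sets of 6 libraries, each with at least 10 UMIs in some library, 6 held a library farther from the rest than Dixon's criterion allows. For normally distributed values chance gives about 1 in 20, and CPM were used here without a transformation, so that rate may not hold. *Jag1* in neuron-like cells was 6.81 CPM in the sphenopalatine library, and the next highest library had 0.607 CPM. *Hes1* in macrophage-like cells was 64.4 CPM in pelvic_1, followed by 21.9 CPM. *Jag1* in macrophage-like cells was 22.8 CPM in pelvic_2, followed by 6.90 CPM. In cycling glia-like cells the stellate library stood apart for *Hes5*, at 53.1 CPM before 17.9 CPM, and for *Hey1*, at 46.3 CPM before 25.4 CPM. *Notch3* in neuron-like cells was 0.684 CPM in pelvic_1, followed by 0.276 CPM. Causes were not tested.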

How the results depend on the processing

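The 57 called member differences kept their direction under all 17 alternatives (969 values in all), and 961 stayed called. Those that lost the call were *Hey1* in fibroblast minus neuron-like cells (−0.68 with each library clustered alone, adjusted *p* = 0.11, and −0.91 in round 1, adjusted *p* = 0.055), *Hey1* in glia minus neuron-like cells (0.40 in round 2, adjusted *p* = 0.27), *Hey1* in mural minus fibroblast-like cells (1.03 clustered alone, 1.01 in round 2 and 0.94 without the sphenopalatine library, adjusted *p* = 0.12, 0.20 and 0.077), *Notch1* in mural minus fibroblast-like cells (0.67 in round 1, adjusted *p* = 0.12) and *Notch3* in fibroblast minus glia-like cells (0.60 in round 1, adjusted *p* = 0.32). Rounds alone hold 3 libraries each.

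Signs turned only among differences that were not called. *Jag1* in endothelial minus fibroblast-like cells became 0.92 with each library clustered alone, 0.13 with over 500 genes per droplet and 0.42 in round 1, and ran from −0.34 to 0.14 with 1 library left out. *Jag1* in endothelial minus glia-like cells became −0.0035 in DESeq2, −0.048 at resolution 2, −0.059 without doublet removal, −0.015 without the low-count filter and −0.099 in round 2, and ran from −0.32 to 0.35 with 1 library left out. With each library clustered alone, *Jag1* in endothelial minus mural-like cells became 0.27. *Jag1* in fibroblast minus glia-like cells became −0.21 clustered alone, −0.056 with over 500 genes and −0.33 in round 1, and ran from −0.099 to 0.30. *Notch1* in cycling minus other glia-like cells became 0.029 in DESeq2, 0.028 with median-of-ratios factors, 0.0068 with the *Mbp*-led cluster counted as glia, an alternative chosen after seeing the data, and 0.013 in round 1. With 1 library left out, *Hes1* in endothelial minus glia-like cells ran from −0.14 to 0.089 and *Hey1* in mural minus neuron-like cells from −0.074 to 0.58. In the *Dll4* split *Hes1* became −0.063 with at least 5 cells, *Notch1* ran from −0.096 to 0.28 and the tip genes from −0.20 to 0.046 with 1 library left out, and the tip genes were 0.20 when split on all counts. *Hey1* ran from 0.99 to 1.25 there, *Jag1* from 0.48 to 1.08 and the arterial genes from 0.39 to 0.71. Causes were not tested.

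Counts of all genes called moved by over 1.5 times in cycling minus other glia-like cells in round 1 (1693 in place of 3906), and in round 2 in endothelial minus mural-like (3584 in place of 5731) and mural minus fibroblast-like cells (3099 in place of 4868), where fewer libraries entered. Another scaling moved the median of all genes by over 0.1 in mural minus neuron-like cells (by 0.17 with median-of-ratios factors and 0.22 in DESeq2), and in DESeq2 in mural minus glia-like (0.13), endothelial minus mural-like (−0.12) and mural minus fibroblast-like cells (0.10). Thinning moved 63 of 70 shares of cells with a UMI. Clustered alone, endothelial-like *Hey1* and *Jag1* moved to 98.7 and 105 CPM, and without doublet removal neuron-like *Notch1*, *Notch2*, *Notch3* and *Hes5* moved to 3.00, 1.33, 0.520 and 0.933 CPM.

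Ganglia could not be paired by replicate number, since they share only replicate number 1. Classes were compared within libraries, with the library as a term. The comparison of myelinating Schwann-like with glia-like cells was not run, since only 2 libraries held enough cells. With the pelvic ganglion alone in both rounds, ganglion and chemistry cannot be told apart between rounds for the other ganglia. Levels under 3 UMIs lie at the limit of this depth.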

Other observations

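Perineurial-like cells, of the sheath around nerves, passed the naming rule in the sphenopalatine (433 cells) and stellate (71 cells) libraries. They held *Jag1* at 58.3 and 50.9 CPM and *Hes1* at 855 and 423 CPM in these libraries. Their 4 perineurial markers summed to 530 to 916 CPM and the 8 fibroblast markers to 26501 to 30348 CPM. *Notch2* was 29.0 and 59.0 CPM and *Notch1* 25.1 and 14.2 CPM, and no *Dll4* UMI was counted. Cycling perineurial-like cells, found in all 6 libraries, held *Jag1* between 20.3 and 106 CPM and *Hes1* between 218 and 746 CPM. *Notch2* lay between 28.7 and 55.9 CPM and *Notch1* between 24.9 and 73.8 CPM there, and no *Hes5* UMI was counted in any library. Their name is weak, since their perineurial markers (223 to 510 CPM) overlapped with those of fibroblast-like cells (103 to 354 CPM) and their fibroblast markers, at 30070 to 56270 CPM, with those of fibroblast-like cells too.

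Myelinating Schwann-like cells numbered 29 in pelvic_1 and 15 in the sphenopalatine library. *Hes1* was 659 and 240 CPM, *Hey1* 23.0 and 38.4 CPM and *Jag1* 4.61 and 0 CPM, the last with 3 UMIs equal to 28.8 CPM in the sphenopalatine. *Notch3* and *Hes5* were at 0 UMIs in both.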
